A study of Mus musculus with 2 samples.

Results

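MHC class I chains and the genes that load them with peptide were followed in mouse hybridoma cells given the bursal peptide BSP-II. The genes were H2-K1, H2-D1, H2-T23, H2-M3, B2m, Tap1, Tap2, Tapbp, Erap1 and Nlrc5, and their probes were found by matching the RefSeq accession of each non-control probe to the gene's transcripts. Of the 10 genes, 9 had at least 1 probe, and these 9 were among the 17302 genes that could be named on the arrays. They were measured by 15 of 41163 probes, printed on 33 of 45018 spots. No probe matched Nlrc5, which encodes the main activator of class I transcription, so it was not analysed here. The rule that found the probes used no measured value.

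A hybridoma is an antibody-secreting line obtained by fusion of B cells and myeloma cells, and all RNA here came from 1 hybridoma, labelled 1H5F9. The untreated group was 1 sample of cells kept for 4 h at 0 µg/ml of BSP-II, and the BSP-II group was 1 sample kept for 4 h at 5 µg/ml, in the same serum-containing medium. Cy3-labelled cRNA from each sample was put on 1 single-colour Agilent array. The series describes 2 independent experiments, and both arrays used here carry replicate number 1. The mouse strains of the fused cells are not given in the sources used here.

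Class I molecules show peptides from inside the cell to cytotoxic T cells and natural killer cells. A heavy chain pairs with beta-2 microglobulin in the endoplasmic reticulum, where the peptide-loading complex holds it until a peptide binds. The TAP transporter brings in peptides made by the proteasome, tapasin bridges TAP to the empty heavy chain, and the aminopeptidase ERAP1 trims peptides to fit the groove. Mature B cells and plasma cells carry class I molecules on their surface, and interferons and NF-kB raise transcription of the pathway.

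Each dose has 1 array, so none of the differences could be tested or checked against replicates, and they describe these 2 arrays alone. A log2 difference is BSP-II minus untreated, taken after each array's processed signal was divided by its 75th percentile, which was 309 without and 356 with BSP-II. That scaling lowered each log2 difference by 0.21. The median log2 difference of the 12864 genes well above background on both arrays was −0.03, with quartiles of −0.19 and 0.11. Signals are in scanner units before scaling. Since probes bind with different strength, a signal can be compared between arrays for 1 probe but not between probes.

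Each of the 15 class I probes passed the background filter on both arrays. At least 1 probe did so for 12864 of the 17302 named genes, so passing the filter does not by itself mark a cell type. All 10 B lineage and plasma cell markers passed it too, from Jchain at signals of 150869 and 155073 down to Cd79a at 23.7 and 22.3. Of 16 measured markers of T cells, myeloid cells, NK cells, fibroblasts and red cells, 10 were also above background on both arrays, but the highest signal among the 16 was 209. The summed signal of the T cell markers was 263 and 230 (untreated and BSP-II), that of the myeloid markers 134 and 196, and that of the B lineage markers 251732 and 267870. The sums join probes of different strength and lists of different length, and Jchain gave most of the B lineage sum. They therefore do not measure the share of each cell type. The part of other cells in the class I values was not tested.

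The classical heavy chains were close to equal in signal on both arrays while the array as a whole was brighter with BSP-II. In RNA from a bulk culture, fewer cells with a transcript and less of it per cell cannot be told apart. No measured class I gene differed by 1.5-fold in either direction, where 6.05% of all genes did. At a lower threshold of 1.2-fold, 2 of the 9 genes were past it as scaled here, Tap2 and Erap1, both higher with BSP-II. Without background subtraction or with normexp only Erap1 was past it, and with local medians subtracted H2-D1 was past it too, lower at −0.29. Among all genes 8.66% were at least 1.2-fold higher and 18.1% at least 1.2-fold lower, 26.8% in all, so that the 2 of 9 lay near the background for either direction. The median of the 9 genes was −0.07, against −0.03 for all genes, and 4 of the 9 lay above the all-gene median.

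**Figure D1:**
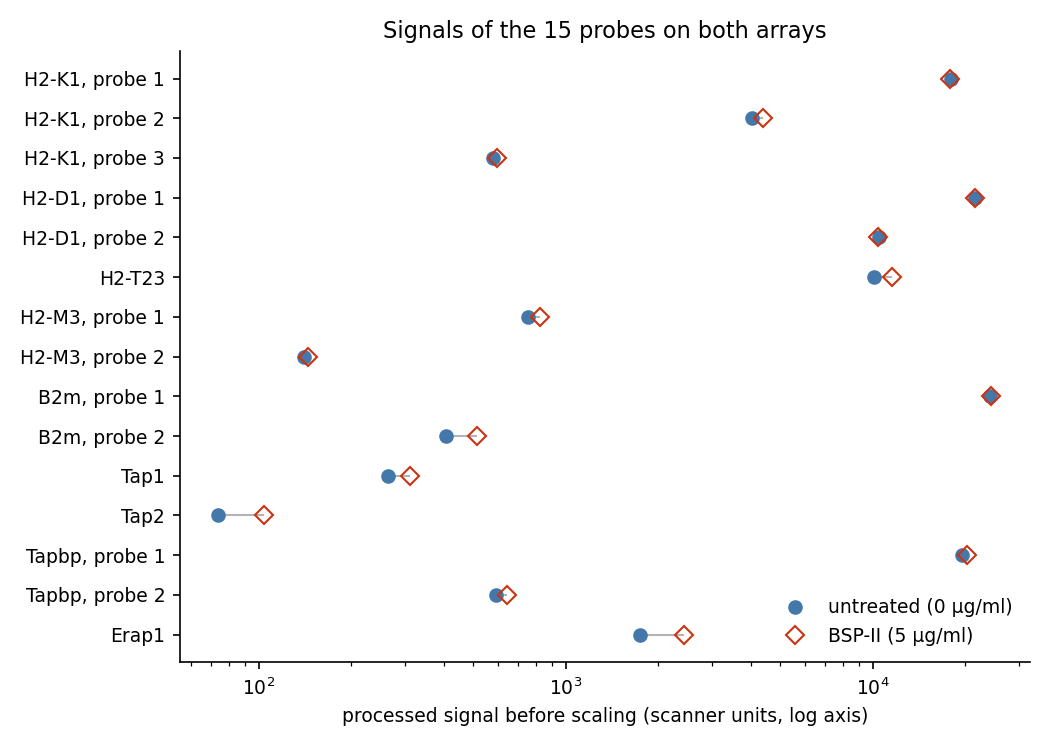
Processed signal before scaling (scanner units, log axis) of each of the 15 class I probes on the untreated array (filled circles) and the BSP-II array (open diamonds), 1 array each. The markers lie on top of each other for H2-D1 and for the bright probe of B2m, and lie farthest apart for Tap2 (73.9 and 104) and Erap1 (1741 and 2422). Probes are numbered from the brightest for each gene.

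H2-K1 encodes the classical heavy chain K, which presents peptides to CD8 T cells. Its brightest probe, printed on 10 spots, had a mean signal of 18035 untreated and 17926 with BSP-II. Over the spots the untreated signal ran from 16349 through a median of 18375 to 18766, and the BSP-II signal from 16830 through 18006 to 18915, so the spots of the arrays overlapped. After scaling, the log2 difference was −0.21, with an SD of 0.04 over the 10 spots, and all 10 were below 0. Before scaling, 3 of the 10 spots were higher with BSP-II. The SD covers repeat spots of 1 RNA sample only. The other probes of H2-K1, at signals of 4033 and 4376 and of 578 and 598, gave −0.09 and −0.16.

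H2-D1 encodes the other classical heavy chain measured, D. Its brighter probe had signals of 21592 untreated and 21584 with BSP-II, a change of −0.04% before scaling and a log2 difference of −0.21 after it. Its second probe, at 10502 and 10382, gave −0.22. The probes of H2-D1 were 0.02 apart, and 93.6% of the 4032 genes with several detected probes had probes at least that far apart. Heavy chain genes are highly alike and vary between mouse strains, so a probe named for H2-K1 or H2-D1 may also bind other heavy chain transcripts. How far it does so was not tested, since the files hold no probe sequences.

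H2-T23 encodes Qa-1, a nonclassical chain that shows leader peptides of other class I molecules to NK and T cell receptors. Its 1 probe had signals of 10089 untreated and 11581 with BSP-II, and its log2 difference was −0.01. It thus lay close to the all-gene median, 0.21 above H2-K1 and 0.20 above H2-D1. H2-M3 presents N-formylated peptides, such as those of bacteria. Its brighter probe, at 752 and 824, gave −0.07, and its dimmer probe, at 140 and 144, gave −0.16.

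B2m encodes beta-2 microglobulin, the light chain that pairs with class I heavy chains. Its probes went opposite ways after scaling. The bright probe had signals of 24180 untreated and 24315 with BSP-II, a log2 difference of −0.20, close to those of the brightest probes of H2-K1 and H2-D1. The dim probe, printed on 10 spots, had a mean signal of 409 untreated and 513 with BSP-II. Its untreated spots ran from 373 through a median of 402 to 477, and its BSP-II spots from 442 through 502 to 598. The spots of the arrays overlapped, but each spot was higher on the BSP-II array than on the untreated array before scaling. After scaling its log2 difference was 0.12, with an SD of 0.11 over 10 spots, and 9 of the 10 were above 0. The probes of B2m were thus 0.32 apart, and 25.6% of genes with several detected probes had probes at least that far apart. The direction of B2m on these arrays depends on the probe.

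**Figure D2:**
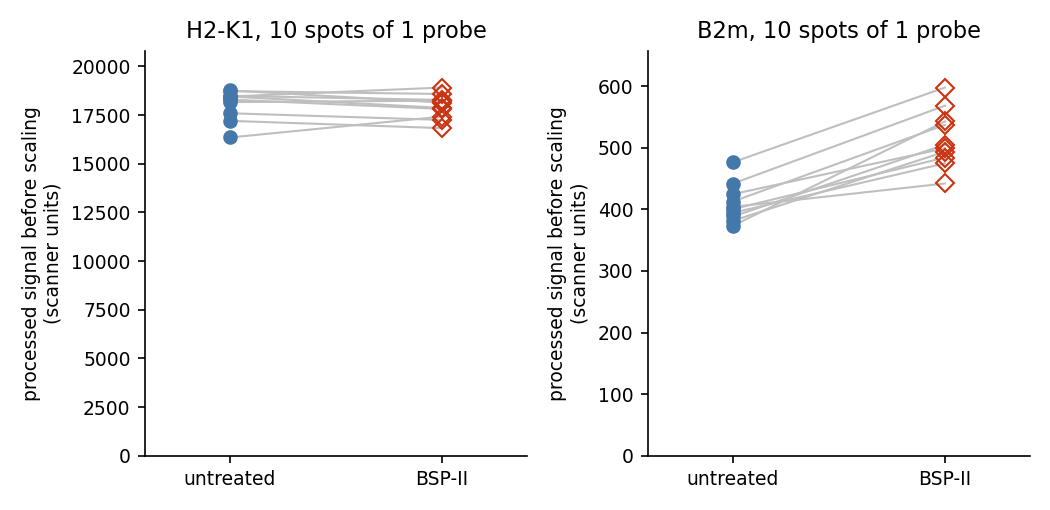
Processed signal before scaling (scanner units, axes from 0) of the 10 repeat spots of 1 H2-K1 probe and of the dim B2m probe; lines join the same spot position on the untreated and BSP-II arrays. H2-K1 spots stayed between 16349 and 18915 on both arrays, and all 10 B2m spots were higher on the BSP-II array. Repeat spots share 1 RNA sample per array and are not replicates of the treatment.

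Tap1 and Tap2 encode the subunits of the TAP peptide transporter. Tap1, with 1 probe, had signals of 263 untreated and 311 with BSP-II, and its log2 difference was 0.04. Tap2, with 1 probe, had signals of 73.9 and 104, a difference of 40.5% before scaling. Its scaled log2 difference was 0.29, or 1.22-fold higher, the highest of the 9 genes in this setting. These signals are low, at 6.48 times (untreated) and 13.6 times (BSP-II) the lowest signal well above background. Without background subtraction, Tap2 was at 0.09, the same as Tap1 at 0.09. The TAP subunits work as a pair, and on these arrays Tap2 lay 0.25 above Tap1, a gap not tested.

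Tapbp encodes tapasin, which holds heavy chains next to TAP and favours tight-binding peptides. Its brighter probe had signals of 19511 untreated and 20250 with BSP-II and a log2 difference of −0.15. Its second probe, placed on another transcript accession, had 592 and 641 and gave −0.09. Both probes therefore pointed the same way and lay 0.06 apart.

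Erap1 encodes the aminopeptidase of the endoplasmic reticulum that trims the N-terminal end of peptides. Its 1 probe had signals of 1741 untreated and 2422 with BSP-II, a difference of 39.1% before scaling. The scaled log2 difference was 0.27, or 1.21-fold higher. Its log2 difference stayed between 0.27 and 0.39 over all 12 ways of processing tried. The scanner's own error for a single spot, carried to a log2 difference, was 0.20 for Erap1 and 0.21 for Tap2, so both exceeded it as scaled here. Tap2 was within it, at 0.09, without background subtraction or with normexp. As scaled here, the brightest probe of H2-K1 and both probes of H2-D1 also exceeded their error of 0.20, in the lower direction. H2-K1 and H2-D1 were within it at −0.09 and −0.08 with median scaling, and at −0.14 and −0.06 with normexp. Relative to the all-gene median, their brightest probes were within it too, at −0.19 and −0.18. The scanner's error does not cover the variation from one culture or hybridisation to another.

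**Figure D3:**
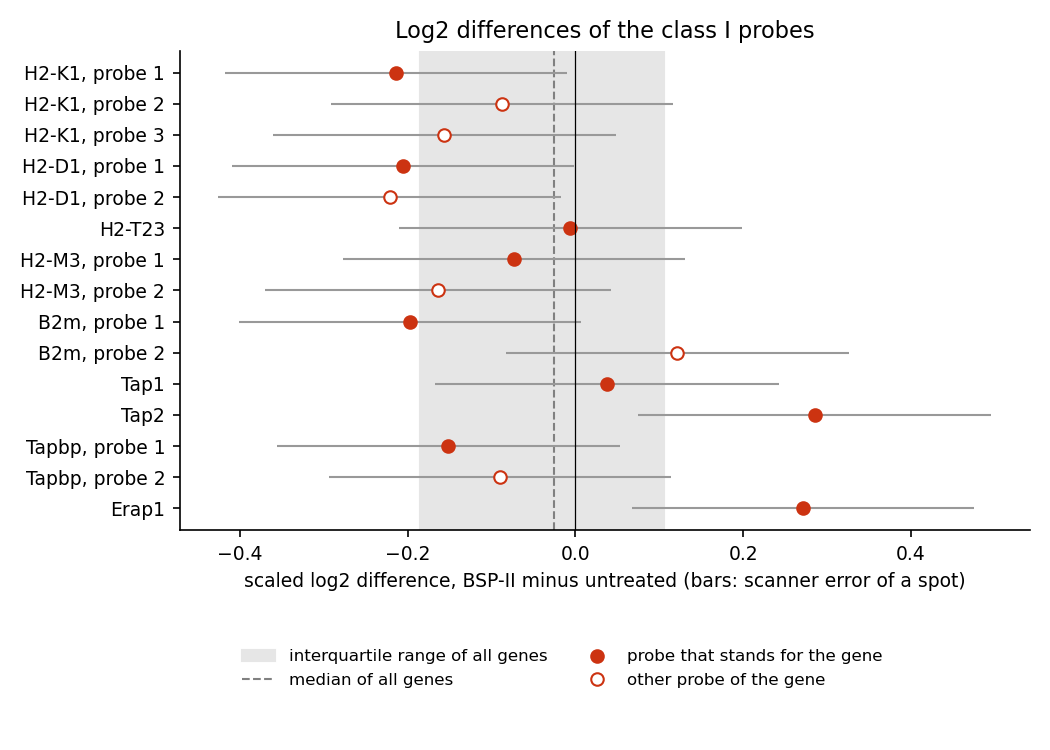
Scaled log2 difference (BSP-II minus untreated) of each of the 15 class I probes; filled points are the probe that stands for the gene, open points its other probes, and bars the scanner's error for 1 spot. The grey band spans the interquartile range of all 12864 genes (−0.19 to 0.11) around their median (dashed line, −0.03). Tap2 (0.29) and Erap1 (0.27) lie right of the band, and H2-K1 (−0.21), H2-D1 (−0.21) and the bright B2m probe (−0.20) lie just left of it.

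The differences were also set beside those of probes of like brightness, since bright probes varied less on these arrays than dim ones. Probes above background on both arrays were split by mean level into 10 classes of equal size. In the brightest class, 2447 probes, the quartiles were −0.12 and 0.03. The brightest probe of H2-K1, both probes of H2-D1, the bright probe of B2m and the brighter probe of Tapbp lay below that lower quartile, while H2-T23 at −0.01 and the second probe of H2-K1 at −0.09 lay inside. Erap1 lay above the upper quartile of its class, which was 0.09, and Tap2 above that of its own, which was 0.13. In all, 6 of the 15 probes lay below the quartiles of their class, 7 inside and 2 above. By definition, quartiles leave as many probes of a class below as above, and as many outside as inside. The 6 below were probes of H2-K1, H2-D1, B2m and Tapbp, so they are not 6 separate genes. The places of the 15 probes come from a single pair of arrays and carry no error.

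**Figure D4:**
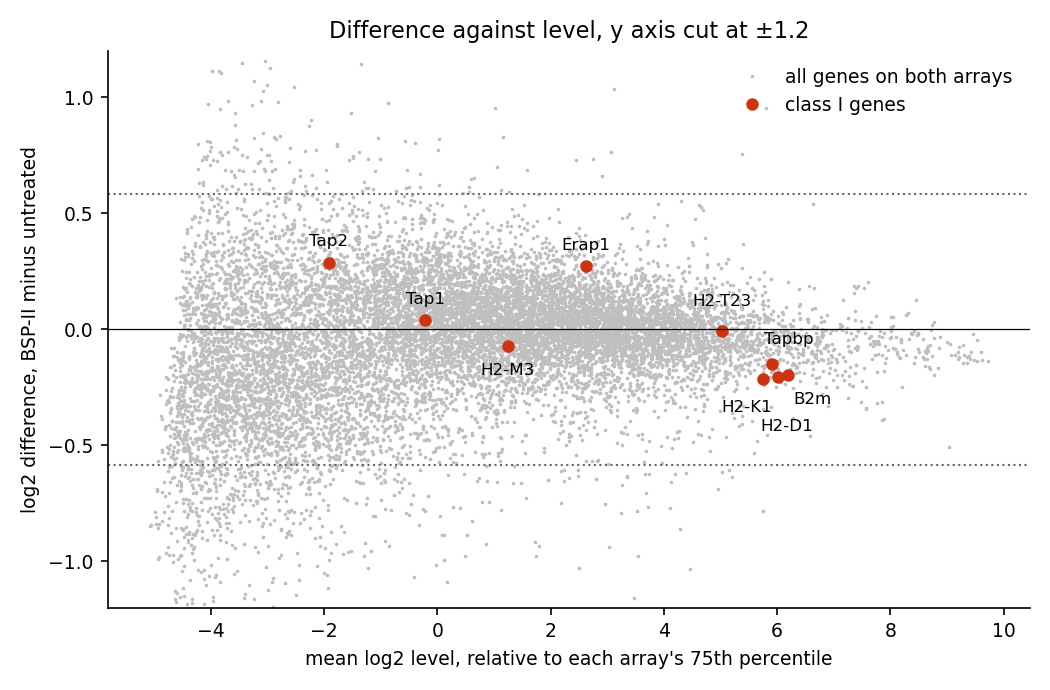
Scaled log2 difference (BSP-II minus untreated) against the mean log2 level relative to each array's 75th percentile for all 12864 genes (grey) and the 9 class I genes (red). Dotted lines mark 1.5-fold, and 90 genes lie outside the plotted range of ±1.2. H2-K1, H2-D1, B2m and Tapbp sit together at the bright end between −0.21 and −0.15, and Erap1 and Tap2 sit above 0 at lower levels.

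Promoter sequence is shown for H2-K1, H2-D1 and B2m, whose bright probes had nearly the same difference, for the other heavy chains, and for Erap1, which differed the other way. Sequences were found for Tapbp and Tap1 too, but are not shown. Class I promoters are known for an NF-kB site, an interferon response element and an SXY module, which contains a CRE-like X2 box and a Y box of the CCAAT type and is bound by the complex that NLRC5 joins. Sequences are from RefSeq, build GRCm38.p6, written 5′ to 3′ on the gene's strand, and were found for 8 of the 10 genes (the first listed start of each). Capitals mark matches on either strand to the NF-kB consensus, TTTCNNTT (interferon response), TGACG (X2 type) or CCAAT. The H2-K1 stretch is chr17:34000325-34000468 on the minus strand, H2-D1 chr17:35262913-35263055 (plus), H2-M3 chr17:37270095-37270227 (plus), H2-T23 chr17:36032739-36032835 (minus), B2m chr2:122147540-122147648 (plus) and Erap1 chr13:74639839-74639866 (plus).
H2-K1: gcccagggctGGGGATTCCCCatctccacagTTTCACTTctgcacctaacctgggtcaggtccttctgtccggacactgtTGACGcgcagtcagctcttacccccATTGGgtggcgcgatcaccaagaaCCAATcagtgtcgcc
H2-D1: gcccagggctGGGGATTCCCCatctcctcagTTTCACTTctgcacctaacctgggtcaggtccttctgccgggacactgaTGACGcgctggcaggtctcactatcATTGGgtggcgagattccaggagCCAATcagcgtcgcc
H2-M3: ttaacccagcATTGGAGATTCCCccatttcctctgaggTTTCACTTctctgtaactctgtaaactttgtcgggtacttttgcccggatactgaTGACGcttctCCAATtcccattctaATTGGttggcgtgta
H2-T23: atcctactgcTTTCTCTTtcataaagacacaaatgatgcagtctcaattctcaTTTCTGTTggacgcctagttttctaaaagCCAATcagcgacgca
B2m: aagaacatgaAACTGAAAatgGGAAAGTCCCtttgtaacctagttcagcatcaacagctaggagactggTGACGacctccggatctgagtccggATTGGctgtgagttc
Erap1: ccaccttcacTTTCACTTtcggtcccgg

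The H2-K1 and H2-D1 stretches carry the matches in the same order, and 112 of 143 bases (78.3%) are the same when they are set side by side without gaps. In H2-D1 the NF-kB match begins at position −171 from the annotated start, TTTCACTT at −150 and TGACG at −101. In H2-K1 the same matches lie nearer to the annotated start, at −111, −90 and −41. In H2-M3 an NF-kB match and a CCAAT match overlap. H2-T23 has neither an NF-kB nor a TGACG match in its window. In Erap1 the interferon match spans the annotated start. Of the genes not shown, Tapbp, at a log2 difference of −0.15, has CCAAT matches only, and Tap1, at 0.04, has TGACG and CCAAT matches. H2-M3, at −0.07, has a match of every kind. Whether the matches go with the differences was not tested.

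Over the 300-base windows of 27025 genes, from 250 bases before the start to 50 after it, the NF-kB consensus matched in 8.18%. TTTCNNTT matched in 24.2%, TGACG in 21.0% and CCAAT in 37.9%. Of the 8 class I genes with a window, 4 held the NF-kB consensus, 6 TTTCNNTT, 5 TGACG and 7 CCAAT. A match describes letters in a window and not a bound site.

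Other genes of class I presentation were described from a list of 41, of which 35 had a probe and 31 were well above background on both arrays. Their median log2 difference was −0.07, against −0.03 for all genes, and 9 of the 31 lay above the all-gene median. None was 1.5-fold higher and 1 was 1.5-fold lower, where 1.21% and 4.84% of all genes were. At 1.2-fold, none was higher and 4 were lower, where 8.66% and 18.1% of all genes were.

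The proteasome subunits that replace the standard ones when interferon acts were near or below the all-gene median. Psmb9 had signals of 8479 untreated and 8172 with BSP-II and a log2 difference of −0.26. Psmb8 was at −0.13 by one probe and 0.05 by another. Psmb10 was at −0.03. All 6 members of the immunoproteasome and its activators lay between −0.26 and 0.03 by the probe that stands for each gene.

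The measured chaperones and editors of the endoplasmic reticulum were lower or near the all-gene median. Calreticulin, Calr, which holds the heavy chain in the loading complex, was at −0.28 from signals of 30868 and 29375. The other Calr probe gave −0.23. Calnexin, Canx, which folds the heavy chain beforehand, was at −0.07, with 0.05 and −0.11 at its other probes. Tapbpl, which encodes the tapasin-like peptide editor TAPBPR, was at −0.15. No probe matched Pdia3, the tapasin-bound partner in the complex.

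Among the 10 other class I and class I-like chains above background on both arrays, 8 lay below 0 after scaling, as did 7114 of all 12864 genes. The median of the 10 was −0.11, and 2 of them lay above the all-gene median of −0.03. H2-T22, a nonclassical chain seen by gamma delta T cells, was at 0.24 from signals of 1137 and 1546, with 0.15 and 0.12 at its other probes. H2-T24, a nonclassical chain at dimmer signals of 138 and 111, gave −0.52 and −0.39 by its probes. Hfe, a class I-like protein that controls iron uptake, was at −0.40, close to background at 14.9 and 13.1. All probes of H2-T22 were thus above 0 and all of H2-T24 below it.

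Of the other proteases, the largest difference was that of Sppl2a, an intramembrane protease, at −0.63 from signals of 92.2 and 68.9. By the probe that stands for each gene it was the only one of the 31 past 1.5-fold, while other probes of H2-Q10 (−0.73) and Rfx5 (−0.78) were also past it. Sppl2a is better known for cutting the class II invariant chain. H2-Ke6, which is on the list for its place in the MHC region, encodes a steroid dehydrogenase and was at −0.0031.

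Of the regulators of class I transcription, Irf1 and Rfx5 are given. Irf1, an interferon-induced activator of class I genes, gave −0.05 and −0.16 by its probes. Rfx5, which binds the SXY module together with Nlrc5, was at 0.09 at a low signal of 116 and 142, but at −0.78 by its other probe. Of 9 interferon target genes above background on both arrays, 3 lay above the all-gene median, and their median was −0.14. By the probe that stands for each gene, none was past 1.5-fold and 2 were at least 1.2-fold lower, Gbp2 at −0.33 and Rsad2 at −0.42, where 18.1% of all genes were. The Rsad2 signals were close to background, at 16.1 untreated and 13.9 with BSP-II. The other probe of Rsad2 was dimmer still and gave −1.18, and that of Irgm1 gave −0.44.

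MHC class II, the other presentation pathway of B lineage cells, gave values on the same scale for 3 genes. The invariant chain Cd74 was at 0.03 from signals of 62101 and 73091, and H2-Ab1 was at −0.02, with −0.07 and −0.13 by its further probes. H2-Aa, at signals of 100 and 78.1, gave −0.56 and −0.46 by its probes.

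The scaling alternatives moved the all-gene median, so the places of the class I genes were also read against the all-gene median of each of 12 settings. H2-K1, H2-D1, B2m and Tapbp were below it in all 12, and Tap1, Tap2 and Erap1 above it in all 12. Relative to that median, H2-D1 ran from −0.30 to −0.03 and Tap1 from 0.03 to 0.12, so both came close to it in some settings. H2-T23 was above in 11 and H2-M3 in 2. For B2m these values rest mainly on the bright probe, and with its probes combined by their median it was only 0.01 below the all-gene median.

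**Figure D5:**
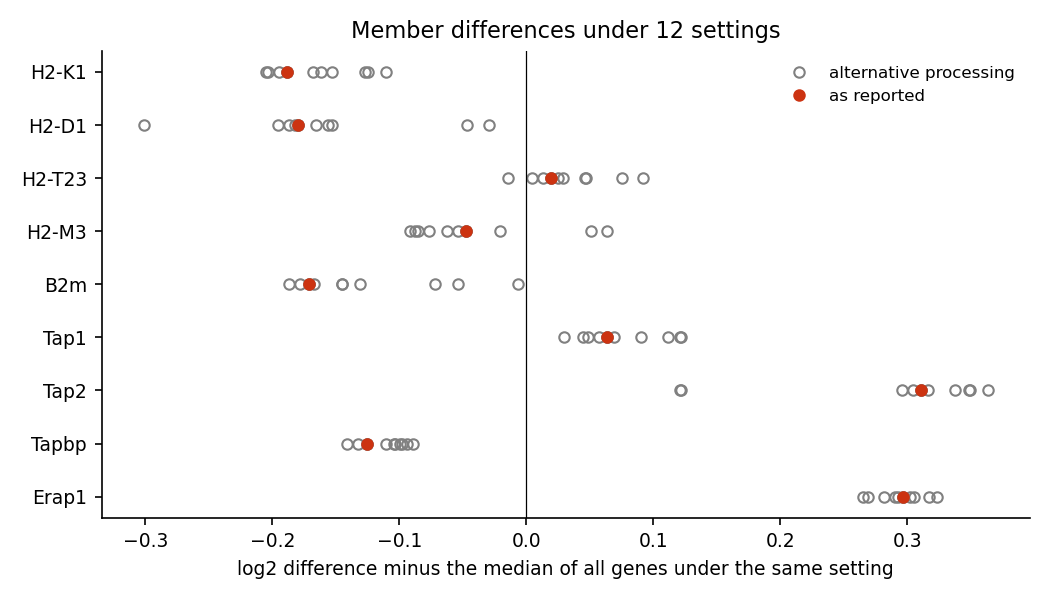
Log2 difference of each of the 9 class I genes minus the median of all genes, as reported (filled) and under 11 alternative ways of processing (open). Erap1 keeps between 0.26 and 0.32 and Tap2 between 0.12 and 0.36 above the all-gene median, H2-K1 keeps 0.11 to 0.20 below it, and H2-T23 and H2-M3 lie on both sides. The settings share the same 2 arrays and are not replicates.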

How the data were processed

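The submitters' processing notes name Agilent Feature Extraction 10.5.1.1. The intensity values deposited, per the file headers, are a background-subtracted processed signal with its error, and the median spot and background brightness. The deposited flags (unit "other") mark outliers, saturation and spots well above background. The authors' deposited value table is on a log2 scale, found by comparison with the processed signal; its centring is not described there. Control spots and 189 outlier spots were left out, each array was divided by its 75th percentile, and spots of a probe were averaged as log2 values. The probe with the highest mean level stood for a gene, and all other probes of the members are given. Accessions were named through a RefSeq table of GRCm38.p6 (61.0% of probes matched), used for names alone because the array grid was annotated on mm9. The lowest signal well above background was 11.4 (untreated) and 7.66 (BSP-II), no non-control spot was saturated, and the number of arrays limits the precision. The members and lists were chosen with earlier results of these data known. Named were all members, 10 chosen pathway genes (1 is not reported here) and the 4 others with the largest difference; with 2 arrays no gene can be named for a like pattern over samples. Alternatives changed scaling, background correction, filters, probe rules and threshold. Tools were R 4.3.3 with limma 3.58.1 (normexp), Python 3.11.15, pandas 2.3.3, numpy 2.4.6, statsmodels 0.14.6 (loess) and matplotlib 3.10.9.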

Additional observations from a re-analysis of the deposited data

How the results depend on the processing

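No paired analysis was possible because each group is 1 array. The number of class I genes past 1.5-fold was 0 in all 12 settings and with every probe counted singly, an alternative chosen after seeing the data; it was 0 at 2-fold and 2 at 1.2-fold. The members' median changed sign with the setting: reported as −0.07, it was 0.05 with median scaling and in the authors' table, 0.02 without background subtraction and 0.03 with normexp. Relative to all genes it ran from −0.09 (loess) to 0.06 (normexp). Tap2 depended most on the background, at 0.09 without subtraction and 0.09 with normexp. Taking the other probe turned B2m from −0.20 to 0.12. Signal over background limits Tap2 most, and nothing here estimates the spread between cultures.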
